A study of Mus musculus with 13 samples.

Results

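Genes for 10 antioxidant enzymes were followed across the treatment groups of an RNA-seq experiment on mouse gastrocnemius, the large muscle of the calf. The genes were Gpx1, Gpx3, Gpx4, Sod1, Sod2, Sod3, Cat, Prdx3, Prdx6 and Nqo1, which were taken by name from a table of 21868 genes, and the rule that lists them uses no measured value, although they were chosen with earlier results of these data known. All 10 were among the 12303 genes that reached a mean normalized count of 10 over the 13 mice and were therefore tested. Male mice, given as C57BL/6 in the labels and as C57BL/6N in the study's account of the RNA-seq data, entered the study at 7 weeks of age. After 1 week of acclimatization they were fed a diet with 60 kcal% fat for 15 to 17 weeks to make them obese, and all were then moved to standard chow and treated for 3 weeks. The vehicle group of 5 mice (mice 1 to 5) received phosphate-buffered saline. The semaglutide group of 5 mice (mice 13 to 17) was injected intraperitoneally with 30 nM/kg per day of semaglutide, an agonist of the GLP-1 receptor that lowers food intake. The labels give the vehicle and semaglutide groups as Vehicle+placebo and Semaglutide+placebo. The semaglutide + ketone ester group of 3 mice (mice 19, 21 and 22) received that dose together with drinking water that held 0.114 g/mL of a ketone ester, a compound that raises circulating β-hydroxybutyrate. No group received the ketone ester alone, and every value below was measured in mice that had been on the high-fat diet. Each library came from 1 mouse.

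Antioxidant enzymes remove superoxide and peroxides, which arise in muscle at the mitochondrial respiratory chain and at membrane oxidases. Superoxide dismutases turn superoxide into hydrogen peroxide, Sod1 in the cytosol and the space between the mitochondrial membranes, Sod2 in the mitochondrial matrix and Sod3 outside the cell. Hydrogen peroxide is then reduced by glutathione peroxidases, which use glutathione, by peroxiredoxins, most of which use thioredoxin, and by catalase (Cat), which needs no cofactor beyond its heme and sits in peroxisomes. Nqo1 reduces quinones by transferring a pair of electrons at once, which avoids semiquinone radicals, and is a classical target of the transcription factor NRF2.

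Between 15319471 and 23498162 reads were counted on genes per library, with group medians of 16295209 to 16845327. Values are normalized counts, in which the authors scaled each library by a factor that did not make the totals equal. Fold changes were tested with limma on log2(normalized count + 1), and a gene was called where the p adjusted over all tested genes was under 0.05. Semaglutide mouse 13 stood apart from its group. On the first principal component of all genes tested, which held 38.1% of the variance, it scored -9.12, against 31.8 to 52.5 in the other 4 semaglutide mice, -24.5 to -12.8 under vehicle and -25.6 to -15.8 under semaglutide + ketone ester. Results are therefore given with and without this mouse where it changed a call. Mouse 13 was singled out on these same data and lay nearer the other groups on this component. Leaving it out therefore favours larger differences from the semaglutide group. The values without it, adjusted p included, are given as a description only. Of all genes tested, 3084 (25.1%) differed between semaglutide and vehicle, 1459 higher (11.9%) and 1625 lower (13.2%). Between semaglutide + ketone ester and semaglutide 2262 (18.4%) differed, 1118 higher (9.09%) and 1144 lower (9.30%). These are the shares against which the counts of enzymes are read. Both comparisons use the same semaglutide mice. With the libraries rescaled to equal totals instead, the median gene moved by 0.17 and -0.24 on the log2 scale in these comparisons, and the numbers higher and lower became 3262 and 929 for the first and 611 and 3587 for the second.

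Under semaglutide, 4 of the 10 enzymes differed from vehicle, Gpx3 and Sod1 being higher and Sod2 and Prdx3 lower. The median log2 fold change of the 10 was -0.14, against 0.00 for all genes tested. Gpx3, Gpx4, Sod2 and Prdx3 differed between semaglutide + ketone ester and semaglutide, the first pair lower and the second pair higher with the ester, and the median of the 10 was 0.08, against 0.00 for all genes. None of the 10 differed between semaglutide + ketone ester and vehicle. The enzymes of the mitochondrial matrix, Sod2 and Prdx3, gave the same calls under every omission of a single mouse, whereas Gpx3, Sod1 and Gpx4 did not. Each of that pair still lost its ester call under 1 other setting, given beside its values. With equal totals the split of calls was 3 higher and 2 lower under semaglutide and 1 higher and 3 lower with the ester.

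**Figure D1:**
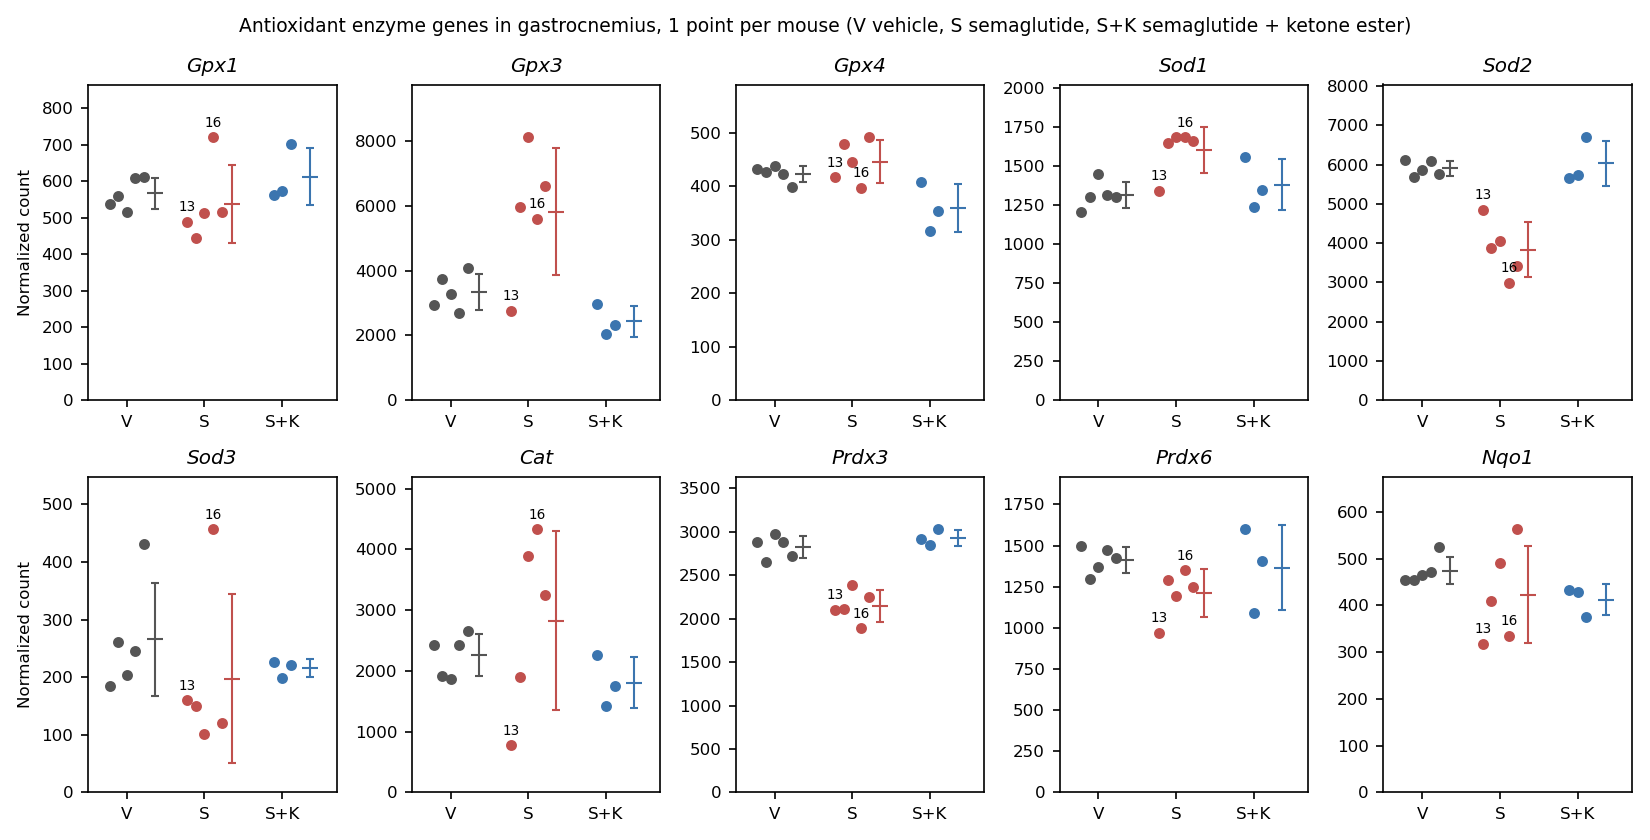
Normalized counts of the 10 enzyme genes (y axis, from 0) by group (x axis, with V for vehicle, S for semaglutide and S+K for semaglutide with ketone ester), 1 point per mouse, with the group mean and SD beside the points and semaglutide mice 13 and 16 numbered. The semaglutide points of Sod2 and Prdx3 lie below all others, whereas those of Gpx3 lie above all others except in mouse 13, at 2768.

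The glutathione peroxidases Gpx1, Gpx3 and Gpx4 hold selenocysteine, the selenium analogue of cysteine, at the active site. It is written in the messenger as TGA, a codon that ends translation in most other genes, and is read through only where a selenium-specific machinery is present. The 3 codons and their surroundings are shown because they are what Gpx1, Gpx3 and Gpx4 share and the other 7 enzymes lack, as no TGA stands in frame inside the coding sequence of those 7. Each line gives 45 bases of coding sequence of the longest principal transcript (GENCODE M21, GRCm38), 5′ to 3′, with the selenocysteine codon in capitals.
Gpx1: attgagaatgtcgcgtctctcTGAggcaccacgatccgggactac
Gpx3: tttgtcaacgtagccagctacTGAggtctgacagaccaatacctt
Gpx4: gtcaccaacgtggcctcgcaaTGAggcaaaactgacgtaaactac
The codon is number 47 of Gpx1, at chr9:108339451-108339453, number 73 of Gpx3, at chr11:54907256-54907258, and number 73 of Gpx4, at chr10:80054737-80054739, all on the plus strand and inside coding exons. Over these stretches Gpx1 and Gpx4 share 25 of 45 bases, Gpx3 and Gpx4 share 24, and Gpx1 and Gpx3 share 21.

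Gpx3 encodes the secreted glutathione peroxidase of plasma and extracellular fluid. The gene lies at chr11:54902453-54910377 on the plus strand, and its longest principal transcript has 5 exons and 1594 bases. In vehicle mice its normalized counts were 2942, 3727, 3282, 2679.9 and 4069. Semaglutide mice 13 to 17 had counts of 2768, 5968, 8124, 5608 and 6629, and semaglutide + ketone ester mice had 2967, 2031 and 2312. Of the 5 semaglutide mice, 4 thus lay above every other mouse of the experiment, while mouse 13 lay within the vehicle range. Group means were 3340.0 ± 566 (SD, n = 5), 5819.6 ± 1959 (SD, n = 5) and 2437 ± 481 (SD, n = 3). The rise under semaglutide was 0.73 on the log2 scale (SE 0.25, adjusted p = 0.046), a small margin from the threshold. When single mice were omitted in turn, the adjusted p was above 0.05 in 12 of 13 fits, with log2 fold changes from 0.59 to 0.81 in those fits. In the fit without mouse 13 the fold change was 0.98 (adjusted p = 0.00078).

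The difference in Gpx3 was larger between semaglutide + ketone ester and semaglutide, at -1.19 (SE 0.28, adjusted p = 0.015), and it was called in 11 of the 13 fits without a mouse. Leaving out mouse 21 or mouse 22, both of the ester group, gave adjusted p-values of 0.071 and 0.062, and fitting only the groups compared gave 0.065. Without mouse 13 it was -1.44 (adjusted p = 0.00026). Against vehicle, Gpx3 under semaglutide + ketone ester differed by -0.46 (95% interval -1.07 to 0.16, adjusted p = 0.66), and the groups overlapped in a single mouse, number 19. Gpx3 was 1 of 2 enzymes, with Sod2, that met the one-way criterion named by the study as it was read here, an unadjusted p under 0.05 over the 3 groups and a ratio of 1.5 or more between the extreme group means. The ratio was 2.39 for Gpx3 and 1.57 for Sod2. That criterion was met by 1976 of all genes tested (16.1%).

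Gpx4 encodes the peroxidase that reduces lipid hydroperoxides in membranes and thereby guards against ferroptosis. The gene lies at chr10:80047166-80056439 and has 7 exons in a transcript of 959 bases. Counts were 433, 426, 437, 422 and 398 under vehicle, 417, 478, 444, 397 and 492 under semaglutide, and 407, 316 and 353 under semaglutide + ketone ester. The semaglutide mice spread more widely than the vehicle mice, with 3 of 5 above every vehicle mouse and 1 just below, and 2 of the 3 ester mice lay below both groups. Semaglutide and vehicle differed by 0.07 (SE 0.09, adjusted p = 0.59), and by 0.24 with equal totals (adjusted p = 0.0499). Semaglutide + ketone ester was lower than semaglutide by -0.31 (SE 0.10, adjusted p = 0.049), a call that was kept in 3 of 13 fits without a mouse. Without mouse 13 the adjusted p was 0.027, and without mouse 21 it was 0.21 (log2 fold change -0.23).

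Gpx1 encodes the most widely expressed glutathione peroxidase, found in cytosol and mitochondria, and lies at chr9:108338903-108340343 with 2 exons. It passed the threshold in no comparison. Its counts ranged from 516 to 610.1 under vehicle, from 445 to 721 under semaglutide and from 561 to 703 under semaglutide + ketone ester. The highest value, 721, belonged to semaglutide mouse 16, whereas the other semaglutide mice had 445 to 515. The log2 differences were -0.09 (95% interval -0.37 to 0.18, adjusted p = 0.61) between semaglutide and vehicle and 0.20 (95% interval -0.11 to 0.52, adjusted p = 0.35) between semaglutide + ketone ester and semaglutide.

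Among the dismutases, Sod2 showed the clearest separation. It encodes the manganese enzyme of the mitochondrial matrix, whose loss is lethal in young mice, and lies at chr17:13006846-13040063 with 5 exons in a transcript of 5861 bases. Vehicle mice had counts of 6127, 5694, 5873, 6093 and 5759.8. Counts in semaglutide mice 13 to 17 were 4849, 3882, 4051, 2988 and 3413, and in ester mice 5648, 5747 and 6702. All 5 semaglutide mice lay below all 8 others, and the vehicle and ester groups overlapped. Sod2 fell under semaglutide by 0.64 on the log2 scale (SE 0.12, adjusted p = 0.0027), from a mean of 5909 ± 194 (SD, n = 5) to 3837 ± 702 (SD, n = 5). It was higher by 0.67 with the ester (SE 0.13, adjusted p = 0.0068), at a mean of 6032 ± 582 (SD, n = 3). Both calls were made in 13 of 13 fits without a mouse. In a fit of only the groups compared, the difference with the ester was no longer called (adjusted p = 0.052). Between semaglutide + ketone ester and vehicle the difference was 0.03 (95% interval -0.27 to 0.32, adjusted p = 0.98).

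Sod1 encodes the copper- and zinc-dependent dismutase and lies at chr16:90220754-90226329, with 5 exons in a transcript of only 641 bases. Counts were 1207, 1304, 1448, 1315 and 1299 under vehicle, 1341, 1646, 1685, 1683 and 1659.7 under semaglutide, and 1561, 1236 and 1347 under semaglutide + ketone ester. Semaglutide mice 14 to 17 were close together and above all other mice, and mouse 13 fell in the vehicle range, below the other 4 by far more than those differed among themselves. The rise under semaglutide was 0.28 (SE 0.09, adjusted p = 0.042) and was called in 4 of 13 fits without a mouse. Leaving out mouse 13 gave 0.35 (adjusted p = 0.0068). The ester group differed from the semaglutide group by -0.22 (SE 0.11, adjusted p = 0.18), and by -0.28 without mouse 13 (adjusted p = 0.039). This difference was also called with equal totals (-0.45, adjusted p = 0.020). It was called too with limma array weights, which give outlying libraries less weight (-0.28, adjusted p = 0.037).

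Sod3, the secreted dismutase that binds heparan sulfate in the extracellular matrix, was the least abundant of the 10 enzymes. Its coefficient of variation was the highest of the 10 under vehicle (36.7%) and semaglutide (74.3%) but only 7.11% with the ester. The gene lies at chr5:52363791-52371418. Vehicle mice 1 to 5 had counts of 185, 261, 204, 245 and 431. Semaglutide mice had 159.6, 149.9, 101, 456 and 120.1, and ester mice had 227, 198 and 221. Semaglutide mouse 16 was the highest of all 13 mice, whereas the other 4 semaglutide mice were the 4 lowest. No comparison was called, with a log2 difference of -0.59 between semaglutide and vehicle (95% interval -1.36 to 0.17, adjusted p = 0.24). Of the 13 fits without a mouse, 1 called this difference, the fit without mouse 16 (-0.95, adjusted p = 0.013). Mouse 16 had the highest Sod3, so leaving it out lowers the semaglutide group, and this fit is given as a description. With array weights and every mouse kept, the difference between semaglutide and vehicle was also called (-0.88, adjusted p = 0.029).

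The mice with high Sod3 also had high counts of adipocyte markers. The 7 markers (Adipoq, Plin1, Cfd, Lep, Cidec, Retn and Fabp4) were taken here to mark fat cells lying between muscle fibres or adhering to the dissected muscle. Fabp4 had the highest mean of them in each group, 3028 under vehicle against 31.2 to 267 for the others, so it weighs most in their sum. The summed count was 19743 in semaglutide mouse 16, against 1772 to 3815 in the other semaglutide mice. In vehicle mouse 5 it was 7084, against 3380.5 to 3643 in the other vehicle mice, and in the ester group it ran from 3772 to 4643. Every mouse had reads from all 7 markers except mouse 14, in which 1 marker was at 0. As an alternative chosen after seeing the data, mice 5 and 16 were left out together. Sod3 then differed by -0.76 on the log2 scale between semaglutide and vehicle, and the ester mice exceeded the remaining semaglutide mice by 0.72. These mice also had the highest Sod3 of their groups, so these differences are given as a description, with no test. Gpx1 and Cat were also highest of all mice in mouse 16, Cat at 4331. In mouse 5, Cat (2656), Gpx1, Gpx3 and Nqo1 were highest among vehicle mice. Nqo1 was low in mouse 16, at 335, and Gpx4 was the lowest of its group in mice 5 and 16. In bulk muscle, fewer cells of a type and less RNA per cell cannot be told apart. The part of fat cells in these values was not tested.

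**Figure D2:**
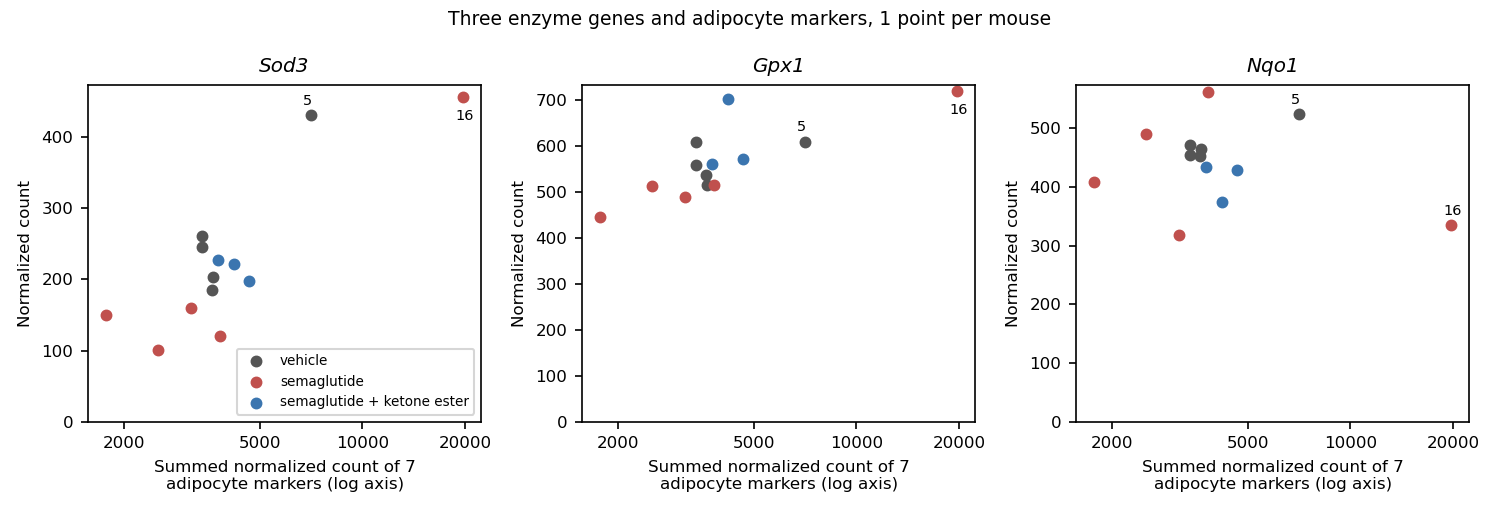
Normalized counts of Sod3, Gpx1 and Nqo1 (y axes, from 0) against the summed normalized count of 7 adipocyte markers (x axis, log scale), 1 point per mouse coloured by group, with mice 5 and 16 numbered. Mouse 16, at a marker sum of 19743, has the highest Sod3 and Gpx1 of all mice but a low Nqo1, at 335.

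Sod3 is also made by fibroblasts and vascular cells, and markers of both moved between groups. Of 6 fibroblast markers, 5 were lower under semaglutide than under vehicle and 4 were higher with the ester than under semaglutide. Their summed count ran from 5915 to 14436 under vehicle, from 4883 to 7107 under semaglutide and from 8280.0 to 14040 under semaglutide + ketone ester. Of 5 tendon markers 3 were lower under semaglutide, as were 2 of 4 smooth muscle markers, Acta2 by -0.56 (adjusted p = 0.023) and Myh11 by -0.51 (adjusted p = 0.044). None of 6 endothelial markers differed between semaglutide and vehicle, and 2 were higher with the ester than under semaglutide, Kdr by 0.41 (adjusted p = 0.030) and Emcn by 0.51 (adjusted p = 0.042). Their part in the values of Sod3 was not tested.

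Prdx3 is the peroxiredoxin of the mitochondrial matrix and is recycled there by thioredoxin 2 and its reductase. The gene lies at chr19:60864051-60874556 on the minus strand and has 7 exons. Its counts were 2886, 2657, 2975, 2886 and 2726 under vehicle. Semaglutide mice had 2102, 2114, 2385, 1893 and 2254, and ester mice had 2917, 2848 and 3028. As with Sod2, every semaglutide mouse was below every other mouse, mouse 13 included. Prdx3 fell under semaglutide by 0.40 (SE 0.08, adjusted p = 0.0036), and it was higher by 0.45 with the ester (SE 0.09, adjusted p = 0.0060), each in 13 of 13 fits without a mouse. With equal totals the fall was 0.22 on the log2 scale (adjusted p = 0.024), and the difference with the ester was 0.21 and no longer called (adjusted p = 0.0504). Its difference between semaglutide + ketone ester and vehicle was 0.05 (95% interval -0.14 to 0.24, adjusted p = 0.91). The genes that recycle Prdx3, named here for that role, did not pass the threshold. Txn2 differed by 0.08 between semaglutide and vehicle (adjusted p = 0.63) and Txnrd2 by 0.05 (adjusted p = 0.79).

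Sod2 and Prdx3 were the 2 of 10 enzymes whose groups did not overlap between semaglutide and vehicle, against 14.7% of all genes tested, and the 2 of 10 between semaglutide + ketone ester and semaglutide, against 20.1%. Muscle fibre markers also moved. Of 9 of them 3 were lower and 1 higher under semaglutide than under vehicle, and their summed count ran from 1.50e+06 to 2.56e+06 under semaglutide, from 2.39e+06 to 2.84e+06 under vehicle and from 2.97e+06 to 3.45e+06 with the ester. Their part in the values of Sod2 and Prdx3 was not tested.

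Prdx6 encodes a peroxiredoxin with a single active cysteine, which reduces phospholipid hydroperoxides with glutathione. It lies at chr1:161240112-161251219, on the minus strand. Vehicle mice had counts of 1297 to 1498, semaglutide mice 971 to 1349 and ester mice 1087 to 1598, so that all 3 groups overlapped. The lowest value was that of semaglutide mouse 13. No difference of Prdx6 passed the threshold, the nearest being -0.23 between semaglutide and vehicle (95% interval -0.48 to 0.02, adjusted p = 0.17). A near-copy, Prdx6b, had a mean count of only 1.75, and no exon of the 10 enzymes shares bases with an exon of another annotated gene.

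Catalase breaks hydrogen peroxide down to water and oxygen. The gene, Cat, lies at chr2:103453849-103485160 on the minus strand and has 13 exons. Counts under vehicle were 2430.5, 1918, 1867, 2435 and 2656. Under semaglutide they were 779, 1892, 3891, 4331 and 3248, and with the ester 2258, 1417 and 1753. Mouse 13 had the lowest catalase of all 13 mice, and mice 15, 16 and 17 had the 3 highest, so the semaglutide group lay on both sides of the vehicle group. The mean difference was 0.10 (SE 0.39, 95% interval -0.74 to 0.95, adjusted p = 0.87). Without mouse 13 it was 0.51 (adjusted p = 0.11), and the difference between semaglutide + ketone ester and semaglutide went from -0.44 (adjusted p = 0.53) to -0.84 (adjusted p = 0.030). Leaving out mouse 16, the mouse with the highest adipocyte marker sum, gave -0.11 between semaglutide and vehicle (adjusted p = 0.87). The part of fat cells in the values of Cat was not tested.

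Red blood cells hold much catalase, Gpx1 and Prdx2, and their markers varied in the muscle samples. The summed count of 5 markers (Hba-a1, Hba-a2, Hbb-bs, Hbb-bt and Alas2) ran from 1356 to 2291 under vehicle, from 50.5 to 3148 under semaglutide and from 2849 to 5558 with the ester. In semaglutide mice 13 to 17 the sums were 3148, 53.0, 1505, 50.5 and 213. Among these mice, mouse 13 had the least catalase and the highest sum, and mouse 16 had the most catalase and the lowest sum. Mouse 15 had the second highest of both. Of the 5 markers, 4 were higher with the ester than under semaglutide. The part of blood in the values of Cat, Gpx1 and Prdx2 was not tested.

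Nqo1 lies at chr8:107388225-107403206 on the minus strand, with 6 exons. Vehicle mice had counts of 453, 455, 465, 471 and 524, semaglutide mice had 318, 409, 489.9, 335 and 562, and ester mice had 434, 429 and 375. The semaglutide mice spread to both sides of the vehicle group. All 3 ester mice were below all 5 vehicle mice, a separation found in 11.3% of all genes tested between these groups, yet the log2 difference of -0.20 did not pass the threshold (SE 0.17, adjusted p = 0.77). That SE uses a spread shared by all 3 groups, the wider semaglutide group included. Semaglutide and vehicle also differed by -0.20 (95% interval -0.51 to 0.12, adjusted p = 0.35).

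**Figure D3:**
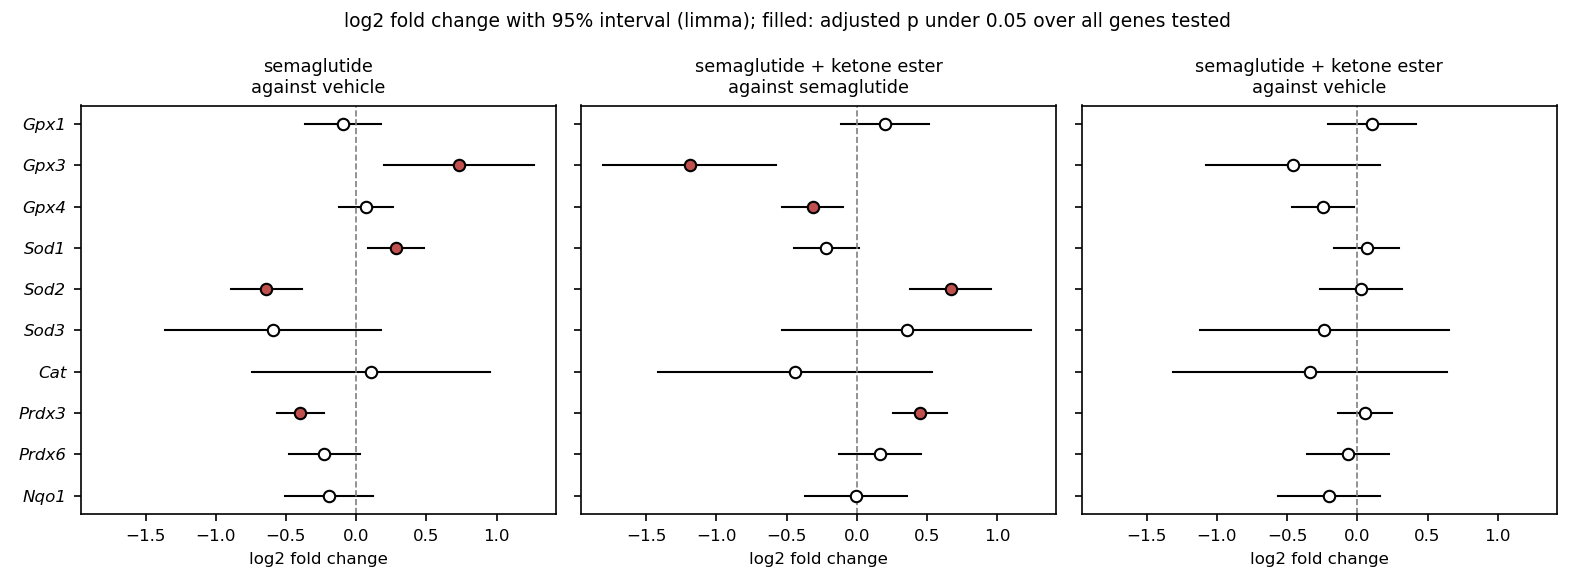
log2 fold changes of the 10 enzyme genes (x axis) with 95% intervals from limma in the 3 comparisons, filled where the adjusted p over all genes tested was under 0.05. In each of the first 2 panels 4 points are filled, none is in the third, and the widest intervals are those of Sod3, Cat and Gpx3.

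Between semaglutide + ketone ester and vehicle, 0 of 10 enzymes were called by limma, by edgeR or by DESeq2. At an unadjusted p under 0.05, 1 of the 10 differed, Gpx4, with a log2 difference of -0.24 (adjusted p = 0.42 in limma). In this comparison 29 of all genes tested (0.236%) were called, 9 higher (0.0732%) and 20 lower (0.163%). The intervals of the 10 enzymes use a spread shared by all 3 groups, so the semaglutide mice also enter their width. For Cat the SE was 0.45 with all mice and 0.25 without semaglutide mouse 13, which is in neither group. The intervals were narrowest for Prdx3, from -0.14 to 0.24, and widest for Cat, from -1.31 to 0.64.

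Counted per kilobase of transcript, the enzymes differed by more than an order of magnitude in vehicle muscle. Gpx3 stood at 2095 ± 355 normalized counts per kilobase, Sod1 at 2051 ± 134 and Prdx3 at 1912 ± 88.2 (SD, n = 5 each), with overlapping ranges. Sod2 followed at 1008 ± 33.1 and Cat at 865 ± 134, which overlapped each other. Prdx6 had 591 ± 34.0 and Gpx1 528 ± 39.5, also overlapping. Gpx4 at 441 ± 15.7, Nqo1 at 305 ± 18.7 and Sod3 at 71.0 ± 26.1 each lay apart from the gene before. Under semaglutide the means per kilobase were 3651 for Gpx3, 2501 for Sod1, 1454 for Prdx3, 1082 for Cat and 655 for Sod2, so that the means of Cat and Sod2 changed places. Their ranges overlapped, at 298 to 1658 for Cat and 510 to 827 for Sod2, and in mouse 13 Sod2 was the higher. These lengths are those of the longest principal transcript, and for Sod2 most of its 5861 bases lie outside the 666 coding bases, so a shorter form in muscle would place it higher.

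The upstream sequences of 3 called enzymes are shown because Sod2 and Prdx3 moved together and Sod1 carries the one match to the antioxidant response element, the site bound by NRF2 with small Maf proteins. RefSeq starts on GRCm38.p6 were given for 8 of the 10 genes, in 11 windows of 250 bases before the start, and Sod3 and Prdx6 had none. The bases that an annotated exon covers were left off. The RefSeq start used for Sod2 lies downstream of the first base of its GENCODE gene given above. The Sod2 stretch is therefore inside that gene, though outside its annotated exons. Each line runs 5′ to 3′ on the strand of the gene, and capitals mark the antioxidant response element (TGACNNNGC) and the GC box (GGGCGG), each searched on both strands.
Sod1, chr16:90220512-90220753, plus strand: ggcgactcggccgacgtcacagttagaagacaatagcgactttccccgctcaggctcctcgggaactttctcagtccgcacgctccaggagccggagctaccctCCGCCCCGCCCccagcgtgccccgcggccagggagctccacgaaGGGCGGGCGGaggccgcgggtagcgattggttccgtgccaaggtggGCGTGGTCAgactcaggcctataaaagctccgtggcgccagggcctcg
Sod2, chr17:13007589-13007816, plus strand: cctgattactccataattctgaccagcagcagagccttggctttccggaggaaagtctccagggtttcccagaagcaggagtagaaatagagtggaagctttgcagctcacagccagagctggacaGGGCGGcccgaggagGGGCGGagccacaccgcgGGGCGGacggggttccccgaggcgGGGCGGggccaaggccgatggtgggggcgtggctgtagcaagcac
Prdx3, chr19:60874557-60874788, minus strand: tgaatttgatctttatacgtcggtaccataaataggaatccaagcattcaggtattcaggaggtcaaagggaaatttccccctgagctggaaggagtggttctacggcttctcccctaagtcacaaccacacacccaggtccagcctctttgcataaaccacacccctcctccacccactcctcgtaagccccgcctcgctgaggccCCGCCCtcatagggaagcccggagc
The match in Sod1 begins 56 bases before the start and lies on the opposite strand. Sod1 and Sod2 have 4 GC boxes each, 2 pairs of them overlapping in Sod1, and Prdx3 has 1. Over the full windows, the response element was found in 1 of the 11 windows of these enzymes, against 10.2% of 32851 windows of all genes, and the GC box in 9 of 11, against 32.7%. Of the 11 windows 4 belong to Gpx4 and 2 of those overlap, so the windows are not separate genes, and 7 of the 8 genes held a GC box. The AP-1 site TGANTCA was in 0 of 11, against 6.75%. The 32851 windows were not limited to the genes tested here, so these shares are not those of genes expressed in muscle. These matches are letters and not shown to be bound, and Nqo1 had none of the response element within its 250 bases.

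Other genes of the same pathways were taken from 9 lists of 116 genes in all, of which 97 could be tested. Between semaglutide and vehicle 29 of the 97 differed, 16 higher and 13 lower, against 25.1% of all genes tested, and the median of the 97 log2 fold changes was 0.04. Between semaglutide + ketone ester and semaglutide 25 differed, 10 higher and 15 lower, against 18.4%, with a median of -0.06. With equal totals these splits were 26 higher and 11 lower, and 6 higher and 33 lower. Without mouse 13 the numbers called were 42 and 41 of 97, when 36.2% and 32.2% of all genes tested were called. Between semaglutide + ketone ester and vehicle 0 of the 97 were called by limma or edgeR, 7 had an unadjusted p under 0.05, and DESeq2 called 1, Maff (log2 difference -1.59, adjusted p = 0.043).

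Peroxiredoxins outside the 10 enzymes included 1 that followed Prdx3. Prdx2, a cytosolic peroxiredoxin and a major protein of red blood cells, fell under semaglutide by 0.48 (SE 0.08, adjusted p = 0.0018), from 1198 ± 61.8 to 860 ± 61.9 (SD, n = 5 each). It was higher with the ester by 0.53 (SE 0.09, adjusted p = 0.0036), at 1245 ± 118 (SD, n = 3), and its groups did not overlap in either comparison. Prdx2 was the only one of the 5 genes of this list called under semaglutide. Srxn1, the sulfiredoxin that repairs over-oxidized peroxiredoxins, was lower with the ester than under semaglutide by -0.93 (SE 0.30, adjusted p = 0.049).

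Ccs, the chaperone that delivers copper to Sod1, rose under semaglutide as Sod1 did, by 0.45 (SE 0.11, adjusted p = 0.012). Of the other glutathione peroxidases, Gpx7 and Gpx8 were tested and neither was called, and Gpx2, Gpx5 and Gpx6 were below the filter on low counts. In the thioredoxin and glutaredoxin list, 2 of 10 genes rose under semaglutide and 1 fell. Txn1, the cytosolic thioredoxin, rose by 0.51 (SE 0.13, adjusted p = 0.013) and Glrx3 by 0.29 (SE 0.08, adjusted p = 0.026), whereas Glrx, a small enzyme that removes glutathione from proteins, fell by 0.85 (SE 0.23, adjusted p = 0.021). Txn1 was lower with the ester than under semaglutide by -0.49 (SE 0.15, adjusted p = 0.037), the single call of this list there.

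Genes of glutathione synthesis and breakdown split in direction, with 3 of 10 higher and 3 lower under semaglutide. The 3 with the largest changes were all lower and act in glutathione breakdown. Oplah, which opens oxoproline to glutamate, fell by 0.90 (SE 0.11, adjusted p = 0.00040), from 866 ± 59.4 to 470 ± 79.3 (SD, n = 5 each). Chac2, which cleaves glutathione inside the cell, fell by 0.81 (adjusted p = 0.0030), and Ggt5, a membrane enzyme of the glutamyltransferase family, fell by 0.94 (adjusted p = 0.029). The 3 that rose make or recycle glutathione. They were Gclc, the catalytic subunit of the rate-limiting ligase, at 0.66 (adjusted p = 0.0022), its modifier subunit Gclm at 0.50 (adjusted p = 0.027) and glutathione reductase, Gsr, at 0.56 (adjusted p = 0.048). The 4 genes not called did not all keep to this split. Chac1 differed by 0.77 (adjusted p = 0.48) and Ggt7 by 0.40 (adjusted p = 0.19). Ggct differed by -0.12 (adjusted p = 0.70) and Gss, which makes glutathione, by -0.19 (adjusted p = 0.44). With the ester Gclc was lower than under semaglutide by -0.68 (SE 0.13, adjusted p = 0.0060) and Gsr by -0.74 (SE 0.22, adjusted p = 0.036), and Chac2 was higher by 0.69 (SE 0.17, adjusted p = 0.018) and Oplah by 0.68 (adjusted p = 0.0061). Gclm differed there by -0.43 (adjusted p = 0.095).

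Glutathione transferases join glutathione to reactive compounds. Of 16 tested, 2 rose and 1 fell under semaglutide, and all 3 were called in the opposite direction with the ester. Gstm1 rose from 1961 ± 101 to 2883 ± 406 (SD, n = 5 each) and was 2026 ± 252 (SD, n = 3) with the ester, giving log2 differences of 0.55 (adjusted p = 0.0040) and -0.50 (adjusted p = 0.016). Gstm2 rose by 0.78 (adjusted p = 0.00072) and was lower with the ester by -0.69 (adjusted p = 0.0046). Gsta4, which handles the lipid peroxidation product 4-hydroxynonenal, fell by 1.29 (adjusted p = 0.0038) and was higher with the ester by 1.15 (adjusted p = 0.018). Gstm genes are close copies of each other, so reads may have been shared among them.

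In the list of NRF2 regulators and targets, 3 of 20 genes rose and 1 fell under semaglutide, and 2 were higher and 6 lower with the ester than under semaglutide. Keap1, which holds NRF2 in the cytosol and marks it for degradation, rose by 0.58 (SE 0.07, adjusted p = 0.00040), from 1417 ± 61.1 to 2119 ± 169 (SD, n = 5 each). Ftl1, the light chain of the iron store ferritin, rose by 0.62 (adjusted p = 0.0085). Both were lower with the ester than under semaglutide, Keap1 by -0.57 (adjusted p = 0.0021) and Ftl1 by -0.64 (adjusted p = 0.019). Nqo2, the relative of Nqo1, fell by 0.92 (adjusted p = 0.015) and was higher with the ester by 1.08 (adjusted p = 0.019). The small Maf factors Maff and Mafk were lower with the ester than under semaglutide, by -1.76 (adjusted p = 0.024) and -0.96 (adjusted p = 0.040). Nfe2l2, the gene of NRF2 itself, differed by 0.14 between semaglutide and vehicle (adjusted p = 0.52), and its target Hmox1 by 0.50 (adjusted p = 0.13). These 2 are named here for their role.

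Selenoproteins, the genes that handle selenium and the methionine sulfoxide reductases made up a list of 24 tested genes, in which 4 rose and 5 fell under semaglutide. Msrb2, a mitochondrial methionine sulfoxide reductase, fell by 1.08 (SE 0.16, adjusted p = 0.0011), from 189 ± 40.5 to 88.2 ± 13.1 (SD, n = 5 each), and was higher with the ester by 1.06 (SE 0.19, adjusted p = 0.0041). Dio2, the selenoenzyme that makes active thyroid hormone, fell by 1.43 (adjusted p = 0.0056) from a low mean of 19.3 ± 4.83 and was higher with the ester by 1.11 (adjusted p = 0.042). Selenom, a selenoprotein of the endoplasmic reticulum, rose by 0.67 (adjusted p = 0.015) and was lower with the ester by -0.69 (adjusted p = 0.031). Among genes that produce oxidants, Aox1, an aldehyde oxidase, rose under semaglutide by 0.66 (adjusted p = 0.0083), and Maob, a monoamine oxidase of the outer mitochondrial membrane, fell by 0.58 (adjusted p = 0.015) and was higher with the ester by 0.81 (adjusted p = 0.0083). They were the 2 of 9 genes called there under semaglutide.

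**Figure D4:**
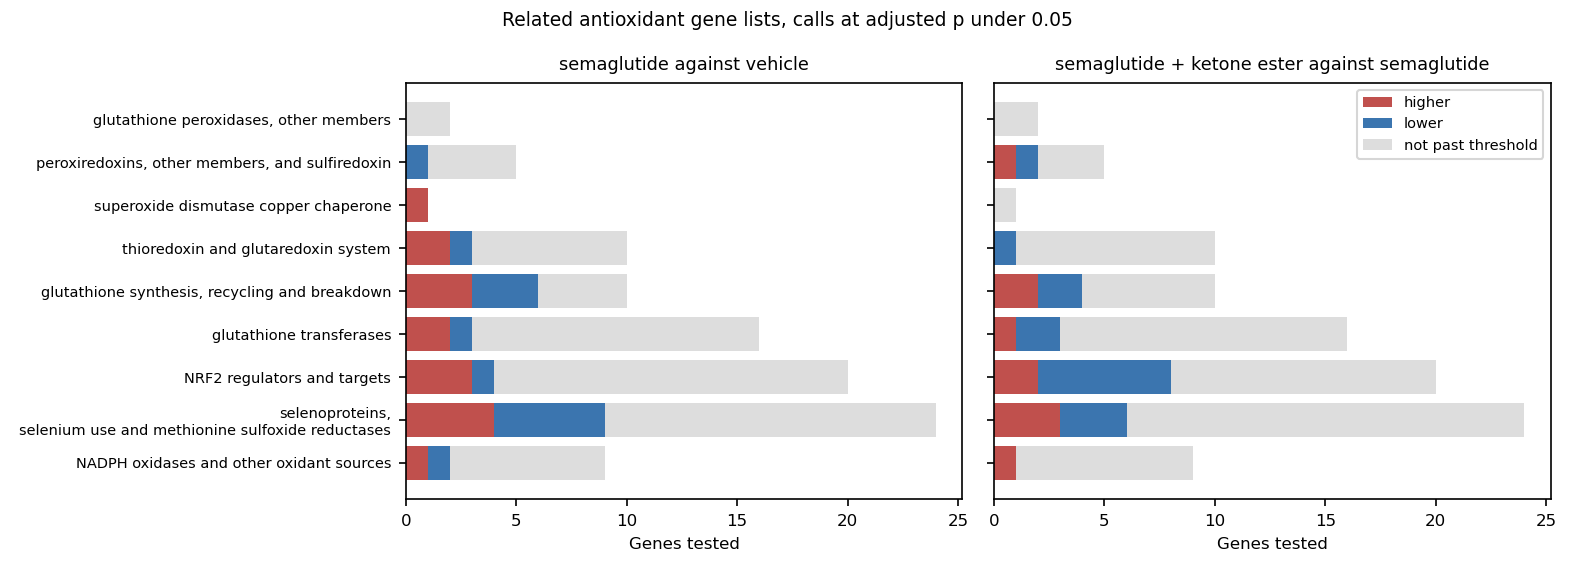
Numbers of genes tested (x axis) in 9 lists of related antioxidant genes, split into those higher, lower and not past an adjusted p of 0.05 in the comparison named above each panel. The NRF2 list has 3 genes higher and 1 lower in the left panel, and 2 higher and 6 lower in the right panel.

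The genes whose log2 values followed Gpx3 most closely over the 13 mice were Gemin6 (Pearson r = 0.97, Spearman rho = 0.96), Eif3e (0.97 and 0.97), Arhgap26 (0.97 and 0.93), Whamm (0.96 and 0.95) and Rbm20 (0.96 and 0.91), chosen by r among all genes tested. The mice shared treatment groups, so the difference between groups enters these values. After the mean of each group was subtracted, the genes with the highest values included Whamm (0.96), Clcc1 (0.95), Ank3 (0.95) and Arhgap26 (0.94). Among the other 9 enzymes, the values after subtraction were highest for Cat (0.79), Sod1 (0.76) and Nqo1 (0.69) and lowest for Sod2 (-0.54), and mouse 13 was the lowest semaglutide mouse for Gpx3, Cat, Sod1 and Nqo1 and the highest for Sod2.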

How the data were processed

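RNA from the gastrocnemius of 13 mice was made into stranded mRNA libraries, and per the labels and the study's methods the authors aligned paired reads to mm10 with DRAGEN. The program that counted reads on genes and its annotation are not given in the sources used here. The deposited table holds normalized counts per gene, a signal that the authors scaled per library (DESeq2 is named in the processing notes), with 1 column per mouse. Whole reads were recovered for 100% of the values (tolerance 0.01).

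Genes with a mean normalized count of at least 10 were tested with limma 3.58.1 (R 4.3.3) on log2(normalized count + 1), all 3 groups in 1 fit, two-sided, with Benjamini-Hochberg adjustment over 12303 genes. The fold changes understate the change of low genes. On the recovered reads, edgeR 4.0.16 (quasi-likelihood, TMM) called 3311, 2557 and 45 genes for semaglutide against vehicle, semaglutide + ketone ester against semaglutide and semaglutide + ketone ester against vehicle. DESeq2 1.42.0 was a further alternative. Other alternatives were a pseudocount of 10, no filter, 2 other scalings, array weights, a trended robust variance, fits of 2 groups, the study's one-way criterion (taken here as an unadjusted p and a ratio of the highest to the lowest group mean), and leaving out each mouse. The limma, edgeR and DESeq2 steps were tested on simulated data.

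The 10 enzymes and all lists were chosen with earlier results of these data known. From each related list, up to 3 called genes with the largest change were named per comparison, for semaglutide against vehicle and for semaglutide + ketone ester against semaglutide. Other genes were named for their role outside that rule, after their values were seen. They were Gclc, Gclm and Gsr under semaglutide, Gclm, Oplah, Keap1 and Ftl1 with the ester, and Txn2, Txnrd2, Nfe2l2, Hmox1, Gpx7 and Gpx8. Chac1, Ggt7, Ggct and Gss were named as the uncalled genes of their list. No 2 libraries agreed within sampling noise (lowest chi-square per gene within a group 9.27). All samples carry 1 batch label. One gene that the naming rule gave is not reported here. Promoters are from RefSeq (GRCm38.p6) and positions and coding sequences from GENCODE M21 (GRCm38).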

Additional observations from a re-analysis of the deposited data

Results flagged for a closer look

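In 4 of the 20 groups of 5 mice checked (10 enzymes under vehicle and under semaglutide), 1 mouse lay far from the other 4 by Dixon's ratio, the gap to the nearest mouse over the whole range, whose 95% critical value for 5 mice is 0.71. Chance alone gives about 1 in 20. For Sod1, semaglutide mouse 13 was low, at 1341 against 1646 to 1685 (ratio 0.888). For Sod3, semaglutide mouse 16 was high, at 456 against 101 to 159.6 (ratio 0.835), and for Gpx1 the same mouse was high, at 721 against 445 to 515 (ratio 0.748). For Nqo1, vehicle mouse 5 was high, at 524 against 453 to 471 (ratio 0.744). Mouse 13 is the semaglutide mouse that stands apart on the first principal component of all genes, and mice 16 and 5 have the highest adipocyte marker sums of their groups. The part of either in these values was not tested.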

How the results depend on the processing

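Leaving out 1 mouse at a time gave 2 to 4 enzymes called for semaglutide against vehicle, 2 to 6 for semaglutide + ketone ester against semaglutide and 0 in each fit for semaglutide + ketone ester against vehicle, with 2 to 6 called in any comparison. For the related genes these fits gave 21 to 42, 7 to 41 and 0 calls, and for all genes 2065 to 4450, 861 to 3959 and 1 to 77. The lowest counts for the ester against semaglutide came without mouse 22 of the ester group (related and all genes) and the highest without semaglutide mouse 13. With no filter on low counts 2 enzymes were called for semaglutide against vehicle and 3 in any comparison, and 4 of all genes for the ester against vehicle. With only the groups compared in the fit 2 enzymes were called for semaglutide against vehicle and 1 for the ester against semaglutide (2 in any), with 8 related genes and 751 of all genes in the latter. Equal totals gave 39 related genes and 4198 of all genes for the ester against semaglutide. Array weights gave 46 and 4279 there, 4847 of all genes for semaglutide against vehicle and 205 for the ester against vehicle, where edgeR gave 45 and DESeq2 171, with 1 related gene by DESeq2. The study's one-way criterion gave 2 enzymes.

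Of the fold changes of single enzymes under alternatives, 619 kept direction and side of the threshold, 45 lost a call, 9 gained one and 17 changed sign, none of the last past the threshold. With equal totals the sign changed for Gpx1 (0.079 for semaglutide against vehicle, -0.034 for the ester against semaglutide), Prdx6 (-0.074 for the ester against semaglutide), Sod2 (-0.037) and Prdx3 (-0.0095), the last pair for the ester against vehicle. Nqo1 went to 7.6e-05 for semaglutide against vehicle with array weights and to 0.023 for the ester against semaglutide with quantile scaling. Without single mice, Cat for semaglutide against vehicle ran from -0.11 to 0.51, Nqo1 for the ester against semaglutide from -0.10 to 0.11, and for the ester against vehicle Sod1 ran from -0.025 to 0.14, Sod2 from -0.052 to 0.071 and Prdx6 from -0.19 to 0.089. Without vehicle mouse 5 and semaglutide mouse 16 together, an alternative chosen after seeing the data, Cat was -0.047 for semaglutide against vehicle, and Gpx3 (adjusted p = 0.083) and Sod1 (adjusted p = 0.12) were no longer called. The calls of Gpx3 and Sod1 under semaglutide were also lost with no filter (adjusted p = 0.073 and 0.072) and with only the groups compared (0.068 and 0.051). With the ester against semaglutide, the latter setting also ended the calls of Gpx3 (0.065), Sod2 (0.052) and Gpx4 (0.15), and equal totals that of Prdx3 (0.0504). The cause of these changes was not tested. No paired analysis was possible because the groups share no mouse numbers. The ester group of 3 mice and the spread of the semaglutide group limit the precision, and the intervals rest on the spread among these mice alone.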
